A study of Mus musculus with 6 samples.

Results

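The 47 genes described here are interferon-stimulated genes, and all 47 were found among the 24054 genes counted. They were listed by symbol with earlier results of these data known, so the list was not blind to the data. They were split by family into 12 Ifit, Oas and Mx genes, which are classic type I interferon targets, and 9 GTPase genes of the Gbp and immunity-related (IRG) families, which are known for their induction by interferon-gamma. The other 26 genes were grouped by what their proteins do. RNA-seq was made from gastrocnemius, a calf muscle, in 6 male C57BL/6 mice. In 3 mice, MI4KO, both Irf4 alleles carried loxP sites (Irf4 flox/flox) and were deleted by Cre, and in 3 mice, MI4OE, Cre switched on an IRF4 transgene in the Rosa26 locus (Rosa26-LSL-IRF4). Both groups carried the same Cre, expressed from Myl1, a myosin light chain gene of skeletal muscle fibres, so that other cells of the muscle kept their own Irf4. The label gives a high fat diet for each mouse while the study describes chow, and no age is given for these 6 animals, so the diet is in doubt. Gastrocnemius of wild-type or flox mice is not analysed here, and a difference between the groups cannot be assigned to loss or to excess of IRF4.

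Interferons are cytokines released on infection. Type I interferons signal through IFNAR1 and IFNAR2 to a complex with STAT2 and IRF9 that binds the interferon-stimulated response element (ISRE), whereas interferon-gamma signals through IFNGR1 and IFNGR2 to the gamma-activated site (GAS). Both routes switch on antiviral and antimicrobial genes, and most cell types, muscle fibres included, can respond. IRF4 belongs to the family of factors that recognise ISRE-like sequences and often binds DNA with an Ets factor at a composite element (EICE).

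The libraries held 18828605 to 29239585 expected counts, and 3 counts corresponded to 0.101 to 0.148 CPM (counts scaled to a common library size, by TMM), and the TMM factor was 0.864 in MI4KO replicate 1 against 0.998 to 1.08 in the other libraries. Irf4 followed the labels, with 0.246, 0 and 0.0672 CPM in MI4KO replicates 1, 2 and 3 and 141, 369 and 261 CPM in MI4OE replicates 1, 2 and 3 (adjusted p = 0.0055, edgeR's quasi-likelihood test). Muscle fibre markers (Acta1, Ckm, Myh4 and 5 others) were abundant in every library, at 162584 CPM or more in sum. The replicates came from separate animals by their titles, and the p-values measure the spread between these 6 samples.

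Interferon-stimulated genes were mostly lower in the MI4OE libraries, but they varied strongly among the MI4KO mice and no single gene passed the test over all genes. The filter on low counts kept 41 of the 47, and of these 37 had a log2 fold change (MI4OE minus MI4KO) below 0, against 50.02% of all 12660 genes tested. The split was 32 below 0 and 9 above 0 when counts were scaled by library totals only, and 29 and 12 with limma on log2(TPM + 0.1). The median log2 fold change was -0.38 over the 41 genes and 0.00 over all genes tested. With limma on log2(TPM + 1) and log2(TPM + 0.1) it was -0.15 and -0.16 over the 41 genes, and 0.04 and 0.06 over all genes tested. The Gbp and IRG genes had a median of -0.89 over 9 genes, and the Ifit, Oas and Mx families had a median of -0.61 over the 7 that passed the filter. On the same 2 TPM scales the GTPase median was -0.46 and -0.52 and the type I median -0.21 and -0.41. With 1 library left out, the GTPase median ran from -0.42 (without MI4KO replicate 2) to -1.35 (without MI4KO replicate 1). The type I median was -0.13 once MI4KO replicate 3 was dropped and -1.15 once MI4OE replicate 1 was dropped, so the order of the 2 medians is not resolved.

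At an adjusted p under 0.05, edgeR's quasi-likelihood test called 0 of the 41 genes, against 0.0237% of all genes tested, and the smallest adjusted p was 0.522. DESeq2 and edgeR's exact test also called 0. At an unadjusted p under 0.05, 5 of the 41 were called, all lower in MI4OE, against 7.58% of all genes tested in either direction, 2.68% lower and 4.90% higher. They were Oas3, Gbp4, Iigp1, Tgtp1 and Usp18, and the same 5 passed a criterion that also asked for a change of 1.5-fold, which 2.28% of all genes passed in that direction. Only Oas3 and Usp18 had groups that did not overlap, and 5.47% of all genes tested were separated in that direction.

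**Figure D1:**
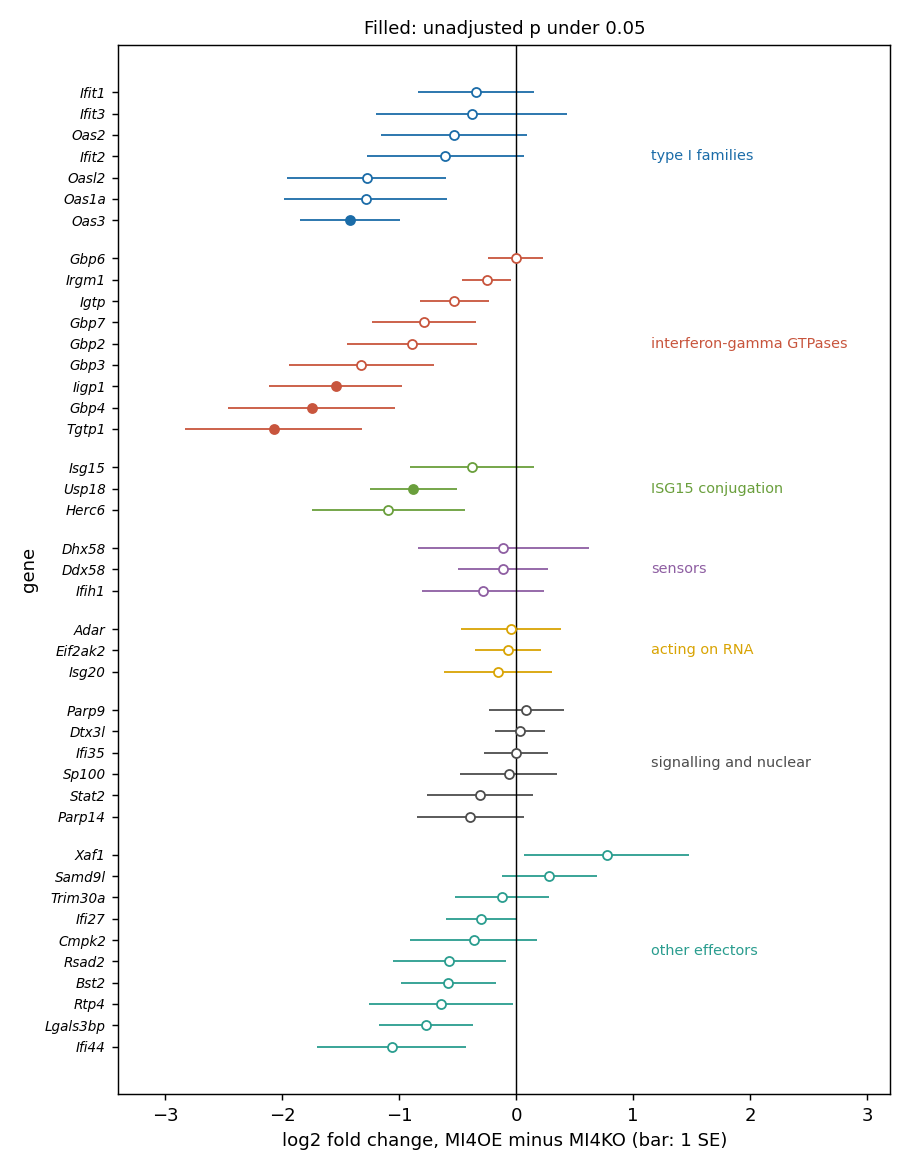
Log2 fold change (x axis, MI4OE minus MI4KO) of the 41 tested interferon-stimulated genes (y axis), grouped by role, with bars of 1 standard error from edgeR's quasi-likelihood fit. Filled points mark the 5 genes with an unadjusted p under 0.05, and 37 of 41 points lie below 0.

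The members were expressed at low levels for this tissue. On the deposited TPM scale, which adjusts for transcript length, the median of their mean levels was 1.597 TPM over the 41 that passed the filter, against 5.79 TPM for all genes tested. It was 1.43 TPM over all 47, and 19 of these lay under 1 TPM. The highest were Ifi27, a small mitochondrial and nuclear membrane protein gene, with a mean of 41.8 TPM (29.3 to 56.1), and Bst2, the tetherin gene, with 17.4 TPM (8.27 to 32.4). Lgals3bp had 12.8 TPM, Ifi35 12.5 TPM and the GTPase gene Igtp 11.4 TPM. Within each of the 6 libraries Ifi27 was above Bst2, and Bst2 was above Lgals3bp and Igtp. Bst2 and Ifi35 changed order between libraries, as did Lgals3bp, Ifi35 and Igtp among themselves, so those orders are not resolved.

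Promoter sequence was not used to choose these genes, but genes that interferons induce through the ISRE or the GAS are likely to carry these elements. A share above that of all genes is therefore in part built into the choice. Windows from 250 bases before to 50 bases after the annotated start were available from RefSeq (GRCm38.p6) for 33 of the 47. The ISRE core, searched on both strands as GAAA, any 2 bases and GAAA, was found for 19 of these 33 genes (57.6%), against 3.99% of 27025 genes with a window. It was found for 6 of 6 Gbp and IRG genes and for 5 of 8 Ifit, Oas and Mx genes, but for 1 of 4 signalling and nuclear genes and 3 of 8 other effectors. The EICE, searched as GGAA, any 2 bases and GAAA, which differs from the ISRE core in its second letter and so cannot match it at the same place, was found for 7 genes (21.2%), against 3.16% of all. The GAS, TTCNNNGAA, which can overlap either of the others, was found for 10 genes (30.3%), against 9.55% of all. A match describes the letters of the window and is not a measured binding site.

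The Ifit genes encode tetratricopeptide-repeat proteins that bind viral RNA, and Ifit3 had 0.592, 6.00 and 9.64 CPM in MI4KO replicates 1, 2 and 3 and 2.81, 7.02 and 2.56 CPM in MI4OE replicates 1, 2 and 3. The groups overlapped completely, with MI4KO replicate 1 the lowest library and MI4KO replicate 3 the highest. Its log2 fold change was -0.38 ± 0.82 (SE, n = 3 per group). Ifit1 lay between 0.696 and 2.88 CPM and Ifit2 between 0.45 and 3.59 CPM, and both were also lowest in MI4KO replicate 1 and highest in MI4KO replicate 3.

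The Oas genes encode oligoadenylate synthetases, which sense double-stranded RNA and activate RNase L. Oas3 had 1.91, 1.44 and 0.914 CPM in MI4KO and 0.368, 0.577 and 0.661 CPM in MI4OE. Every MI4KO library was above every MI4OE library, and MI4KO replicate 1 was the highest, whereas it was the lowest MI4KO library for the other 6 Ifit and Oas genes tested. The log2 fold change was -1.42 ± 0.43 (SE, n = 3 per group, unadjusted p = 0.0118 and adjusted p = 0.522 by edgeR's quasi-likelihood test). An exact two-sided permutation test gave p = 0.1, the smallest that 3 against 3 allows.

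Oas1a had 0.409, 0.594 and 1.86 CPM in MI4KO and 0.492, 0.175 and 0.534 CPM in MI4OE. MI4KO replicate 3 stood above the rest and the groups overlapped, with a log2 fold change of -1.29 ± 0.70 (SE, n = 3 per group), which was -0.37 without that library. Oas1a and its near-identical neighbour Oas1g can share reads, and their summed level also overlapped between the groups. Oasl2, an oligoadenylate synthetase-like gene, had 0.614, 2.81 and 5.78 CPM in MI4KO and 1.39, 1.36 and 1.06 CPM in MI4OE. The MI4OE libraries lay close together, between MI4KO replicate 1 below and MI4KO replicates 2 and 3 above. The log2 fold change of Oasl2 was -1.28 ± 0.68 (SE, n = 3 per group), and -0.45 without MI4KO replicate 3. Oas2 lay between 0.265 and 1.54 CPM, with its highest value in MI4KO replicate 3.

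The windows of Oas3 at chr5:120777610-120777909 and of Oas1a at chr5:120907476-120907775 (GRCm38.p6, both on the minus strand and printed 5′ to 3′ along the gene) are shown. Only members with an ISRE core match could be printed, and among these they were the Oas genes with the largest fold changes. Capitals mark ISRE core matches, which began 75 bases before the start of Oas3 and, as an overlapping pair, 20 and 14 bases before that of Oas1a.
Oas3: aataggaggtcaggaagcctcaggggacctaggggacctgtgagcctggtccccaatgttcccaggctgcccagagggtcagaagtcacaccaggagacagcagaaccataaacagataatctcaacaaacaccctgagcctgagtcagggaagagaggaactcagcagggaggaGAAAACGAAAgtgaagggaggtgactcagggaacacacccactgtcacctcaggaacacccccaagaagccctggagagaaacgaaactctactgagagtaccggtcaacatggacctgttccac
Oas1a: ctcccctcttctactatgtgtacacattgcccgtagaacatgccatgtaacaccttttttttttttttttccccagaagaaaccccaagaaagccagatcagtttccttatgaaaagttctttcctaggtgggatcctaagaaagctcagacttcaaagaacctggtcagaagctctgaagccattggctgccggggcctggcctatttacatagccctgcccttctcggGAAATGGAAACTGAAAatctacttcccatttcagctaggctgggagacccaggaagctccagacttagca

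The remaining 5 genes of the type I families stayed under the filter. The Mx genes encode dynamin-like antiviral GTPases, and Mx1 had 2 to 14 counts and Mx2 had 1 to 15 counts per library. All counts of Mx1 were assigned to its non-coding transcript (NR_003520) and 0 to its coding transcript (NM_010846). Oas1b had 4.36 to 16.9 counts, Oas1g 0 to 13.5 and Oasl1 1 to 26. Each of the 5 had its highest count in MI4KO replicate 3.

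The Gbp genes encode guanylate-binding proteins, which coat intracellular pathogens and the vacuoles that hold them. Gbp4 had 1.01, 11.02 and 5.08 CPM in MI4KO and 1.47, 1.99 and 1.58 CPM in MI4OE. MI4KO replicate 2 was the highest library and MI4KO replicate 1 the lowest, so that the MI4OE values fell inside the MI4KO range. For Gbp4 the log2 fold change was -1.75 ± 0.71 (SE, n = 3 per group, unadjusted p = 0.0411 and adjusted p = 0.626 by edgeR's quasi-likelihood test). Without MI4KO replicate 2 it was -0.86. Gbp2, Gbp3 and Gbp7 had the same order in MI4KO, with 1.84, 11.5 and 8.63 CPM for Gbp2 in replicates 1, 2 and 3. Gbp6 differed from the other 4 Gbp genes, with 9.05 to 16.2 CPM and a log2 fold change of -0.0049 ± 0.23 (SE, n = 3 per group). It is similar in sequence to Gbp10, which can take some of its reads. The summed level of Gbp6 and Gbp10 was 25.4, 14.7 and 18.3 CPM in MI4KO and 18.2, 10.4 and 16.8 CPM in MI4OE. That sum overlapped between the groups and was highest in MI4KO replicate 1.

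The IRG genes encode GTPases that act on pathogen vacuoles. Tgtp1 had 1.501, 14.7 and 3.70 CPM in MI4KO and 1.31, 1.82 and 1.56 CPM in MI4OE. The difference rested mainly on MI4KO replicate 2, and MI4KO replicate 1 lay within the MI4OE range. The log2 fold change was -2.07 ± 0.76 (SE, n = 3 per group, unadjusted p = 0.0265 and adjusted p = 0.577 by edgeR's quasi-likelihood test), and -0.74 without that library. Tgtp1 and Tgtp2 are near-identical and their reads were divided by the quantifier. Their summed level was 3.44, 24.0 and 12.0 CPM in MI4KO and 4.45, 3.60 and 3.09 CPM in MI4OE, again with overlap because of MI4KO replicate 1.

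Iigp1 had 5.28, 21.9 and 17.8 CPM in MI4KO and 2.66, 8.18 and 4.46 CPM in MI4OE. MI4KO replicates 2 and 3 were the highest libraries, and MI4KO replicate 1 was below the highest MI4OE library. Iigp1 had a log2 fold change of -1.54 ± 0.57 (SE, n = 3 per group, unadjusted p = 0.0278 and adjusted p = 0.58 by edgeR's quasi-likelihood test). Igtp had 9.13, 19.3 and 19.1 CPM in MI4KO and 9.31, 11.9 and 11.8 CPM in MI4OE. Its lowest library was MI4KO replicate 1 and its 2 highest were the other MI4KO libraries, with a log2 fold change of -0.53 ± 0.30 (SE, n = 3 per group), or -0.81 without MI4KO replicate 1. Irgm1, a regulator of the other IRG proteins, had 9.77, 15.2 and 15.3 CPM in MI4KO and 12.1, 11.04 and 10.7 CPM in MI4OE, again lowest in MI4KO replicate 1 and highest in the other MI4KO libraries. Its log2 fold change was -0.25 ± 0.21 (SE, n = 3 per group), or -0.44 without MI4KO replicate 1.

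The windows of Tgtp1 at chr11:48992197-48992496 (minus strand) and Gbp3 at chr3:142559794-142560093 (plus strand, GRCm38.p6, both printed 5′ to 3′ along the gene) are shown. They are GTPase genes with large fold changes, again taken only from members with an ISRE core match. Capitals mark ISRE core matches, 77 bases before the start of Tgtp1 and, on the opposite strand as an overlapping pair, 45 and 39 bases before that of Gbp3.
Tgtp1: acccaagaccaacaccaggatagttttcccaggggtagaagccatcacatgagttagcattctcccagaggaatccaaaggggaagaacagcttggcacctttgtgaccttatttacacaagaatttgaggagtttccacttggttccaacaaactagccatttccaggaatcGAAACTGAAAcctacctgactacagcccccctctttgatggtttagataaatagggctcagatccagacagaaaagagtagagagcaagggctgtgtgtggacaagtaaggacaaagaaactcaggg
Gbp3: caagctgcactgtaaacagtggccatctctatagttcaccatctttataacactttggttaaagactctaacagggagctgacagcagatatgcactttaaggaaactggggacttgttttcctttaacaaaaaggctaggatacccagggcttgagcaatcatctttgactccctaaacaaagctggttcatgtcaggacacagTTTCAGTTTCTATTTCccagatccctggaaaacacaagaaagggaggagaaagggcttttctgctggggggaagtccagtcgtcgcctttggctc

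**Figure D2:**
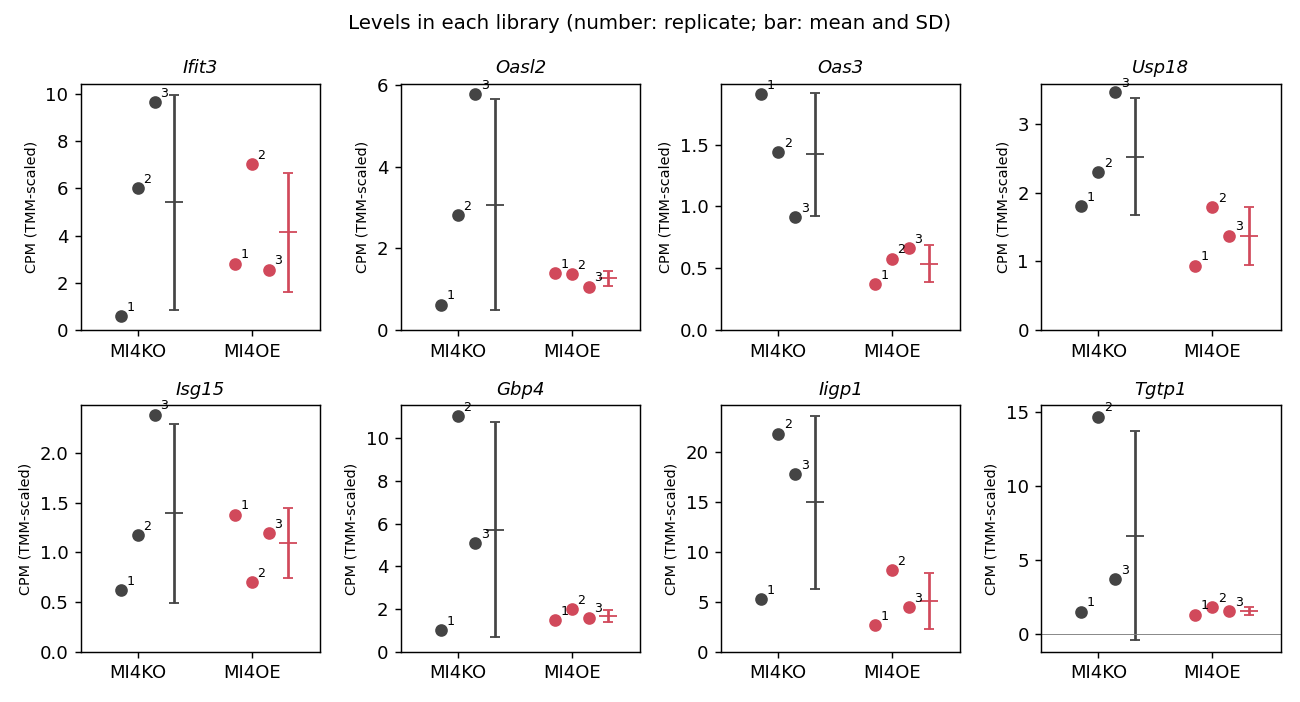
Levels (y axis, TMM-scaled CPM, linear axes that differ between panels) of 8 interferon-stimulated genes in the 3 MI4KO and 3 MI4OE libraries, numbered by replicate, with the group mean and SD to the right of each set of points. Oas3 and Usp18 are the genes without overlap, and in the other 6 panels MI4KO replicate 1 lies within or below the MI4OE values.

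ISG15 is a ubiquitin-like protein that is attached to other proteins, in mice by the ligase HERC6, and removed by USP18, which also dampens signalling at the type I receptor. Usp18 had 1.80, 2.30 and 3.46 CPM in MI4KO and 0.935, 1.78 and 1.37 CPM in MI4OE. The groups did not overlap, although MI4KO replicate 1 and MI4OE replicate 2 nearly met. Usp18 had a log2 fold change of -0.88 ± 0.37 (SE, n = 3 per group, unadjusted p = 0.0466 and adjusted p = 0.652 by edgeR's quasi-likelihood test). The exact permutation test gave p = 0.1, and the groups overlapped when counts were scaled by library totals only.

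Isg15 had 0.616, 1.17 and 2.38 CPM in MI4KO and 1.38, 0.699 and 1.19 CPM in MI4OE. The groups overlapped, with both the lowest and the highest library in MI4KO and a log2 fold change of -0.38 ± 0.53 (SE, n = 3 per group). Herc6 had 0.287, 0.951 and 1.34 CPM in MI4KO and 0.689, 0.280 and 0.265 CPM in MI4OE. Its highest values were those of MI4KO replicates 3 and 2, and its log2 fold change was -1.09 ± 0.65 (SE, n = 3 per group), or -0.63 without MI4KO replicate 3.

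Among the nucleic acid sensors, Ifih1, which encodes the double-stranded RNA sensor MDA5, had 0.778, 3.76 and 3.63 CPM in MI4KO and 2.31, 2.13 and 2.30 CPM in MI4OE. The 3 MI4OE libraries agreed closely and lay midway between MI4KO replicate 1 and the other MI4KO libraries. Ddx58, the gene for RIG-I, had 1.27, 2.81 and 2.92 CPM in MI4KO and 2.71, 2.168 and 1.63 CPM in MI4OE, and was also lowest in MI4KO replicate 1. The log2 fold changes were -0.28 ± 0.52 for Ifih1 and -0.11 ± 0.38 for Ddx58 (SE, n = 3 per group). Dhx58, the gene for the regulator LGP2, lay between 0.164 and 1.07 CPM.

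Zbp1, which encodes a sensor of Z-form nucleic acids, did not pass the filter. It had 3, 34 and 79 counts in MI4KO and 5, 4 and 6 counts in MI4OE. MI4KO replicates 2 and 3 were thus far above the other 4 libraries, and MI4KO replicate 1 held the fewest reads.

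Of the genes that act on RNA, Eif2ak2, which encodes the translation-blocking kinase PKR, had 3.43, 6.35 and 5.64 CPM in MI4KO and 6.01, 4.34 and 4.35 CPM in MI4OE. Isg20, an exonuclease gene, had 0.655, 1.07 and 1.14 CPM in MI4KO and 1.38, 0.524 and 0.707 CPM in MI4OE. In both the groups overlapped and the log2 fold changes were small, at -0.07 ± 0.28 and -0.16 ± 0.46 (SE, n = 3 per group). Adar, the gene of an RNA-editing enzyme, ranged from 1.47 to 5.04 CPM.

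Of the signalling and nuclear genes, Stat2, a part of the ISRE-binding complex, had 1.64, 5.78 and 6.18 CPM in MI4KO and 4.13, 3.32 and 3.53 CPM in MI4OE. Parp14, an ADP-ribosyltransferase gene, had 2.29, 8.40 and 8.60 CPM in MI4KO and 5.85, 4.44 and 4.46 CPM in MI4OE. In both, the MI4OE libraries lay between MI4KO replicate 1 and the other MI4KO libraries, and the log2 fold changes were -0.31 ± 0.45 and -0.39 ± 0.46 (SE, n = 3 per group), or -0.72 and -0.80 without MI4KO replicate 1. Sp100, a nuclear body protein gene, had 2.20, 5.21 and 5.94 CPM in MI4KO and 6.12, 3.30 and 3.44 CPM in MI4OE. Ifi35 had 9.37, 7.81 and 12.6 CPM in MI4KO and 12.7, 6.89 and 10.2 CPM in MI4OE. Sp100 and Ifi35 were highest in MI4OE replicate 1 and had log2 fold changes of -0.06 ± 0.41 and -0.0023 ± 0.27 (SE, n = 3 per group). Parp9 and its partner Dtx3l had fold changes just above 0, at 0.09 and 0.03 on the log2 scale.

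Among the other effectors, Bst2, whose protein tethers budding virions to the cell surface, had 4.09, 7.77 and 13.4 CPM in MI4KO and 6.49, 4.44 and 6.05 CPM in MI4OE. Ifi44 had 0.275, 0.678 and 1.04 CPM in MI4KO and 0.477, 0.131 and 0.353 CPM in MI4OE. Both were highest in MI4KO replicate 3, with log2 fold changes of -0.58 ± 0.40 and -1.06 ± 0.64 (SE, n = 3 per group), which were -0.084 and -0.59 without that library. Ifi27 had 20.6, 28.2 and 29.7 CPM in MI4KO and 31.5, 15.6 and 16.7 CPM in MI4OE. Xaf1, a pro-apoptotic gene, had 0.711, 1.33 and 3.02 CPM in MI4KO and 5.73, 1.14 and 1.89 CPM in MI4OE. Both were highest in MI4OE replicate 1, and Xaf1 had the largest positive log2 fold change of the 41 genes, 0.78 ± 0.71 (SE, n = 3 per group), which was -0.15 without that library. Rsad2 (viperin), Cmpk2, Rtp4, Samd9l, Trim30a and Lgals3bp made up the rest, with log2 fold changes from -0.77 to 0.28 and no unadjusted p under 0.05. Lgals3bp stood out within MI4KO, at 35.7 CPM in replicate 3 against 11.2 to 15.5 CPM in the other 5 libraries.

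The order of the libraries was shared by most of these genes. MI4KO replicate 1 was below both other MI4KO libraries for 38 of the 41 genes, against 37.0% of all genes tested. It was the lowest of all 6 libraries for 28 of the 41 genes, against 23.0% of all genes tested. The highest library was MI4KO replicate 3 for 22 genes, MI4KO replicate 2 for 11 and MI4OE replicate 1 for 7. These libraries were the highest for 9.49%, 21.5% and 31.5% of all genes tested. Oas3 was the gene left over, with its highest value in MI4KO replicate 1.

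**Figure D3:**
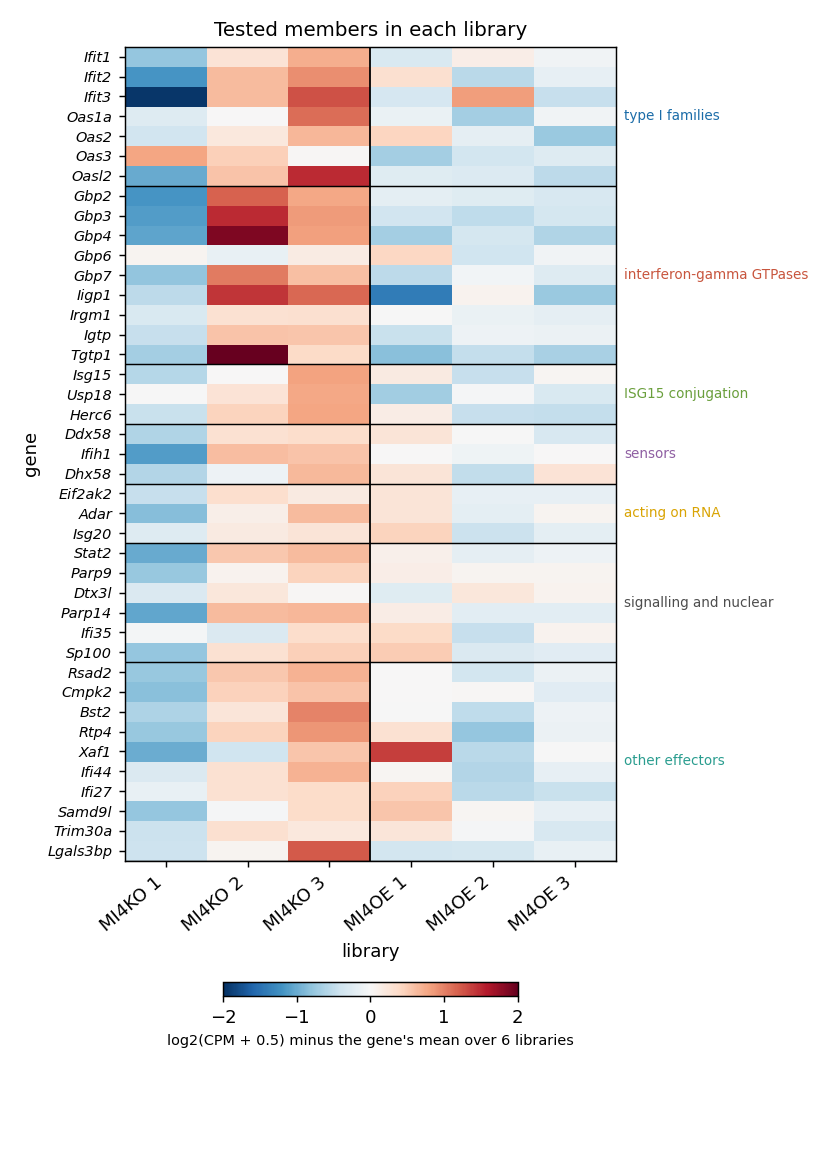
Heat map of log2(CPM + 0.5) minus the mean of the same gene over the 6 libraries (colour, log2 units), with the 41 tested genes in rows by role and the libraries in columns. The column of MI4KO replicate 1 is mostly blue, and 38 of 41 genes are lower there than in MI4KO replicates 2 and 3.

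The spread within MI4KO was larger than that within MI4OE. The SD of log2(CPM + 0.5) had a median of 0.729 over the 41 genes in MI4KO and of 0.267 in MI4OE, whereas over all genes tested the medians were 0.248 and 0.263. The SD was larger in MI4KO for 35 of the 41 genes, against 45.6% of all genes tested. The Gbp and IRG genes were the extreme of this, with medians of 1.05 in MI4KO and 0.179 in MI4OE. These genes share animals, reads and in part loci, so they are not independent observations of the 3 mice. By gene order in GRCm38.p6, 18 of the 44 members placed lay within 3 gene positions of another member.

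The type I families and the GTPases peaked in different MI4KO mice. The Gbp and IRG genes were higher in MI4KO replicate 2 than in replicate 3 for 7 of 9 genes, with a median difference of 0.40 on the log2 scale. The Ifit and Oas genes were higher in replicate 2 for 1 of 7 genes, Oas3, with a median difference of -0.46. Over all genes tested, 48.6% were higher in replicate 2. The other role groups resembled the Ifit and Oas genes, so that order was not particular to the type I families. Replicate 2 was the higher for 0 of 3 ISG15 conjugation genes, 1 of 3 sensors and 1 of 3 genes acting on RNA. It was the higher for 1 of 6 signalling and nuclear genes and 1 of 10 other effectors. Relative to each gene's mean over the 6 libraries, the median of the GTPases was 1.18 in MI4KO replicate 2 and 0.59 in replicate 3, and that of the Ifit and Oas genes was 0.48 and 0.93. The difference rests on 1 animal each and was not tested.

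**Figure D4:**
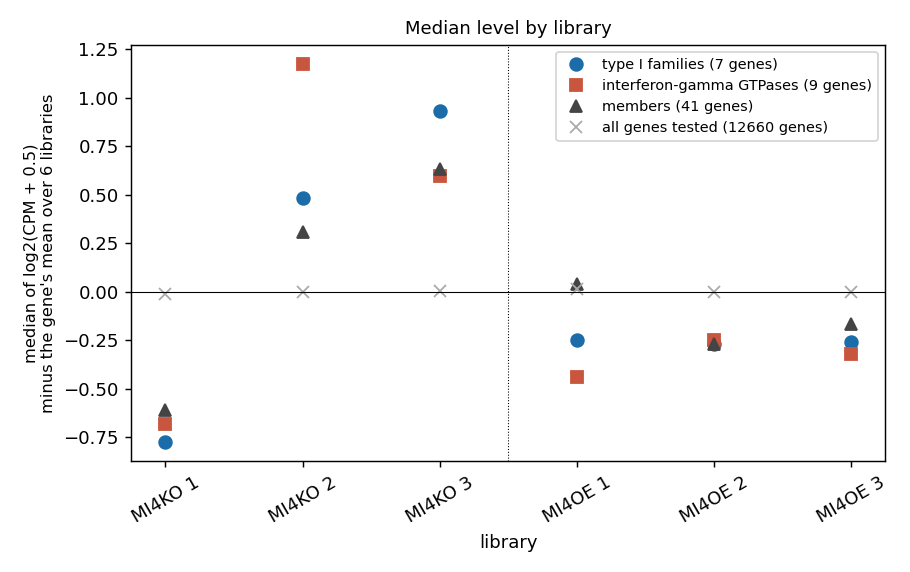
Median over genes of log2(CPM + 0.5) minus each gene's mean over the 6 libraries (y axis, log2 units) in each library (x axis), for 7 Ifit and Oas genes, 9 Gbp and IRG genes, all 41 tested members and all 12660 genes tested. The GTPases are highest in MI4KO replicate 2 at 1.18 and the type I families in MI4KO replicate 3 at 0.93, while all genes tested stay at 0.

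Because MI4KO replicate 1 stood apart for these genes, the counts were also taken without it. The filter then kept 44 of the 47 genes, of which 42 had a log2 fold change below 0, with a median of -0.80. At an unadjusted p under 0.05, 21 of the 44 were called, all lower in MI4OE, against 2.80% of all genes in that fit. The smallest adjusted p among them was 0.255 and 0 passed by edgeR's quasi-likelihood test. The calls included 8 of the 9 Gbp and IRG genes, all but Gbp6, and 3 of the 9 tested genes of the type I families, which were Ifit2, Oas3 and Oasl2. Of the 41 genes tested in all 6 libraries, 25 had no overlap between MI4KO replicates 2 and 3 and the 3 MI4OE libraries, all lower in MI4OE, against 9.25% of all genes. MI4KO replicate 1 was left out after it had been seen to be the lowest library for most of these same genes, a choice that by itself raises these counts, while the shares of all genes come from genes for which it was not picked. The counts without it are therefore a description and support nothing further.

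Leaving out any other library gave fewer calls. Without MI4KO replicate 3 the median was -0.10 and 28 of 41 genes were below 0, and without MI4OE replicate 1 the median was -0.61 and 40 of 44 were below 0. The number with an unadjusted p under 0.05 was 1 without MI4KO replicate 2, 2 without MI4KO replicate 3, 3 without MI4OE replicate 1, 4 without MI4OE replicate 2 and 2 without MI4OE replicate 3.

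**Figure D5:**
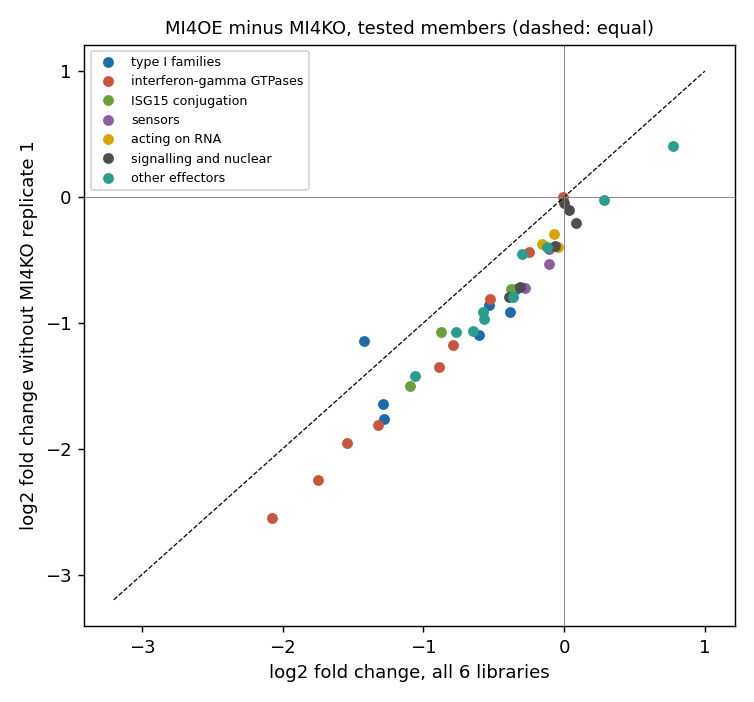
Log2 fold change (MI4OE minus MI4KO) of the 41 tested genes from all 6 libraries (x axis) and from the 5 libraries without MI4KO replicate 1 (y axis), coloured by role. The dashed line marks equal values, and 39 of the 41 points lie below it.

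The other genes of the interferon pathway were read from a list of 63 symbols, of which 60 were in the table and 33 passed the filter. Of these 33, 1 was higher at an unadjusted p under 0.05, Irf4 itself, and 1 was lower, the kinase gene Jak2. These shares are about those of all genes tested, 4.90% higher and 2.68% lower, so the counts say nothing particular of the pathway. The interferon genes themselves were all but absent, since 19 of 21 had 0 counts in each library and Ifnz and Ifng had at most 0.0442 CPM in any. In a single library 0 counts allow a level of up to 0.101 to 0.148 CPM, counting error only.

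The 4 receptor chains overlapped between the groups. Ifnar1 had 15.02, 16.6 and 14.4 CPM in MI4KO and 16.9, 16.2 and 16.0 CPM in MI4OE, a log2 fold change of 0.09 ± 0.14 (SE, n = 3 per group). Ifnar2 had 2.91, 4.32 and 6.48 CPM in MI4KO and 6.74, 3.04 and 3.93 CPM in MI4OE. Its groups overlapped, with a log2 fold change of -0.01 ± 0.39. For the interferon-gamma receptor, Ifngr1 had 17.8, 16.8 and 22.2 CPM in MI4KO and 22.8, 15.03 and 19.7 CPM in MI4OE, and Ifngr2 had 66.9, 90.7 and 83.0 CPM in MI4KO and 52.4, 73.2 and 72.3 CPM in MI4OE. Ifngr2 was the chain with the larger difference, at a log2 fold change of -0.28 ± 0.20 (SE, n = 3 per group).

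Jak2, the kinase bound to the interferon-gamma receptor among others, had 62.5, 66.8 and 50.4 CPM in MI4KO and 29.2, 39.99 and 38.2 CPM in MI4OE. Every MI4OE library was below every MI4KO library, and MI4KO replicate 1 was not low. The log2 fold change was -0.74 ± 0.19 (SE, n = 3 per group, unadjusted p = 0.00471 and adjusted p = 0.495 by edgeR's quasi-likelihood test).

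Among the transcription factor genes that interferons induce, Irf7, which amplifies type I interferon production, had 1.68, 3.57 and 10.3 CPM in MI4KO and 3.49, 1.64 and 2.69 CPM in MI4OE. Irf7 was highest in MI4KO replicate 3, as most type I genes were, and the groups overlapped. Its log2 fold change was -1.004 ± 0.63 (SE, n = 3 per group, adjusted p = 0.785 by edgeR's quasi-likelihood test), and -0.029 without that library. Irf9 had 2.86, 4.52 and 6.48 CPM in MI4KO and 4.45, 4.37 and 3.53 CPM in MI4OE. Irf1 had 2.78, 6.97 and 6.41 CPM in MI4KO and 8.71, 7.20 and 7.15 CPM in MI4OE, so that all MI4OE libraries were above all MI4KO libraries, at a log2 fold change of 0.51 ± 0.33 (SE, n = 3 per group, adjusted p = 0.796 by edgeR's quasi-likelihood test), or 0.19 without MI4KO replicate 1.

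Markers of other cells and fibre types also differed between the libraries. In whole muscle, fewer cells of a type and less RNA per cell cannot be told apart. The T and NK cell markers, none of which passed the filter, summed to 0.123, 1.13 and 1.72 CPM in MI4KO and 0.937, 0.664 and 0.481 CPM in MI4OE, and the sum had the order of most Ifit and Oas genes within MI4KO. Of these 9 markers, none was at 0 in every library, but their counts were few. Over all libraries Cd3g had 1 count, Nkg7 and Prf1 3 each, and Gzma and Klrb1c 6 each. The sum in MI4KO replicate 1 corresponded to 3 counts. Cd3e, Cd3d, Cd4 and Cd8a had the order of the sum within MI4KO, whereas Klrb1c and Gzma were highest there in replicate 2. The 4 leukocyte markers summed to 7.16, 5.11 and 8.46 CPM in MI4KO and 8.41, 4.30 and 8.74 CPM in MI4OE, lowest within MI4KO in replicate 2. Of the 4, Ptprc (CD45) was lowest within MI4KO in replicate 1, with 0 counts there, and Laptm5, Coro1a and Cd53 in replicate 2. Neutrophil markers summed to 4.25, 0.822 and 1.36 CPM in MI4KO and 1.64, 1.03 and 2.18 CPM in MI4OE, highest in MI4KO replicate 1. B and plasma cell markers, none past the filter, summed to 0.317 to 0.573 CPM in MI4KO and 0.707 to 1.61 CPM in MI4OE. Plasmacytoid dendritic cell markers, Bst2 among them, summed to 35.6, 41.3 and 52.4 CPM in MI4KO and 72.8, 42.1 and 51.3 CPM in MI4OE. Tcf4 made up most of that sum.

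The macrophage markers summed to 58.3, 49.3 and 87.6 CPM in MI4KO and 74.9, 34.5 and 67.3 CPM in MI4OE, with 9 of 11 below 0 in log2 fold change. Within MI4KO the sum was lowest in replicate 2, where the GTPases were highest, but single markers differed, and Cd68, Emr1, Mrc1 and Lyz2 were lowest in replicate 1. Emr1, with 0.696, 1.47 and 2.02 CPM in MI4KO and 0.492, 0.524 and 0.839 CPM in MI4OE, was the only macrophage marker with an unadjusted p under 0.05. Cd163 was the only one whose groups did not overlap, and it went the other way. It had 4.03, 3.54 and 2.40 CPM in MI4KO and 4.21, 4.65 and 5.93 CPM in MI4OE. The adipocyte markers summed to 184, 346 and 966 CPM in MI4KO and 266, 139 and 113 CPM in MI4OE, with 7 of 7 below 0, the sum having the order of most Ifit and Oas genes within MI4KO. Fabp4, which endothelial cells also express, made up much of the sum and overlapped between the groups, at 104 to 398 CPM. The other 6 had an unadjusted p under 0.05, and Adipoq, Plin1, Cidec, Lep and Retn were lower in each MI4OE library than in any MI4KO library, with log2 fold changes from -3.53 to -4.01. Lep and Retn were lowest within MI4KO in replicate 2. The endothelial markers summed to 135, 197 and 219 CPM in MI4KO and 465, 234 and 276 CPM in MI4OE, with 10 of 10 above 0. Within MI4KO this sum also had the order of most Ifit and Oas genes, and MI4KO replicate 1 was its lowest library. Esam and Cldn5 were lowest within MI4KO in replicate 2. Fibroblast markers summed to 225 to 376 CPM in MI4KO and 392 to 530 CPM in MI4OE, with 7 of 8 above 0.

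The muscle fibre markers, most of which mark fast fibres, summed to 306647, 234440 and 224909 CPM in MI4KO and 162584, 240986 and 228383 CPM in MI4OE. MI4KO replicate 1, the lowest library for most interferon-stimulated genes, was thus the highest for this sum, and MI4OE replicate 1 was the lowest. Of the 8 markers, Myh1 went the other way, lowest in MI4KO replicate 1 at 566 CPM and highest in MI4OE replicate 1 at 10167 CPM. The slow-fibre markers (Myh7, Tnnt1 and 4 others) summed to 1.64, 63.7 and 33.0 CPM in MI4KO and 5840, 0.908 and 490 CPM in MI4OE. Within MI4KO the sum had the order of most GTPase genes, except that Myl3 was highest in replicate 3, and MI4OE replicate 1 stood far above the other libraries. The part of these cells and fibres in the levels of the interferon-stimulated genes was not tested.

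Reads were 50 bases long and single, and the quantifier divided those that matched several transcripts. Counts were not whole (tolerance 0.005) in at least 1 library for 28 of the 47 genes. For Gbp3, the transcript NM_018734 was given 13.7, 115 and 112 counts in MI4KO and 0 in each MI4OE library, while NM_001289493 was given 0, 157 and 87.0 counts in MI4KO and 52.0, 66.1 and 59.7 in MI4OE. For Adar, all counts of MI4KO replicate 1 and of MI4OE replicates 2 and 3 were given to NM_019655, and none of those of MI4KO replicate 3. Such splits differ between libraries of 1 group and were estimates, so no transcript was compared between groups.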

How the data were processed

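Stranded, mRNA-enriched libraries of 3 MI4KO and 3 MI4OE gastrocnemius samples were sequenced as single 50-base reads. The authors, per the labels and their methods, mapped them to a UCSC transcript set with Bowtie2 2.1.0 and estimated abundance with RSEM 1.2.15 (bcl2fastq 2.17 for demultiplexing). The genome build was not given in the sources used here. The deposited values were expected counts, which RSEM estimates without normalization, and TPM, which the authors' RSEM run adjusted for length. The authors' comparison tables, which hold fold changes and p-values, were not used. Groups came from the genotype label.

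After rounding, edgeR 4.0.16 (R 4.3.3) was run on the counts (filterByExpr with a minimum count of 10 and a minimum total of 15, TMM), and all 12660 genes that passed were tested by the quasi-likelihood test with Benjamini-Hochberg adjustment. SE is the log2 fold change divided by the root of F. The comparison was MI4OE minus MI4KO. On simulated counts with 200 genes changed among 12442, the test called 74 of 97 genes changed 4-fold, 15 of 103 changed 2-fold and 9 unchanged genes.

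Values per library were given for members with an unadjusted p under 0.05 and, in each role group, for the 2 with the highest mean TPM and the 2 with the largest absolute log2 fold change, which made 24 members, and for Irf4, Irf7, Irf9, Irf1, 4 receptor chains and any pathway gene with an unadjusted p under 0.05. Members under the filter were given by counts. One further pathway gene, which the rule lists by name, is not reported here. Gbp2 and Lgals3bp were added for their values. The members and all lists were chosen with earlier results of these data known. The alternatives tried were DESeq2 1.42.0 or the exact test of edgeR as the test, limma 3.58.1 on log2(TPM + 1) or log2(TPM + 0.1), RLE factors, library totals or TMM leaving out the 100 most abundant genes as the scaling, a filter at a mean CPM of 1 or none, and fits without each library in turn. Depth limits low members, and counts of 3 per library cover counting error only.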

Additional observations from a re-analysis of the deposited data

How the results depend on the processing

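No paired analysis was possible because the titles give animal numbers and replicates were numbered as deposited. No member passed an adjusted p of 0.05 under any of the 15 alternatives, with smallest adjusted p-values of 0.123 (DESeq2) to 0.928 (limma on log2(TPM + 1)). The median log2 fold change over the members was -0.10 to -0.80 when 1 library was left out. Genes called at an adjusted p under 0.05 numbered 3 in the full fit, 111 with DESeq2, 108 with the exact test, 5 with limma on log2(TPM + 0.1), and 1 to 4 when 1 library was left out. Genes passing 1.5-fold and an unadjusted p under 0.05 numbered 841 in the full fit, 455 with limma on log2(TPM + 1), and 590 to 1314 without 1 library, the highest without MI4OE replicate 2. With log2(TPM + 0.1), 608 of these were higher and 202 lower, against 552 and 289, while the balance turned to 298 and 330 without MI4KO replicate 1 and was 305 and 285 without MI4OE replicate 1. Members passing that criterion numbered 5 in the full fit, 3 with library totals, 0 with log2(TPM + 1), 1 with log2(TPM + 0.1), and 1 to 20 without 1 library, 20 without MI4KO replicate 1. Members with an unadjusted p under 0.05 numbered 3, 0 and 1 under the same alternatives and 1 to 21 without 1 library. Members whose groups did not overlap numbered 2 in the full fit, 1 with a mean CPM of at least 1, library totals or either TPM scale, and 2 to 25 without 1 library, 25 without MI4KO replicate 1. The cause of these shifts was not tested.

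Of 34 genes taken by the naming rule and tested, 22 kept their direction under every alternative that tested them. Herc6, Ifi44, Oas1a and Oas3 were not tested with a mean CPM of at least 1. The other 12 had these log2 fold changes of opposite sign, none past the threshold. With library totals they were 0.00024 for Eif2ak2, 0.095 for Ifi35, 0.0023 for Sp100 and 0.071 for Ifnar2. With log2(TPM + 0.1) they were 0.18 for Ifit3, 0.0018 for Ddx58, 0.017 for Eif2ak2, 0.048 for Ifi35 and 0.063 for Sp100. With log2(TPM + 1) they were 0.044 for Ifi35 and 0.017 for Sp100, with a mean CPM of at least 1 0.0010 for Ifi35, and without a filter -0.0060 for Ifngr1. Without 1 library they ran from -1.01 to 0.33 for Ifit3, from -0.73 to 0.25 for Isg15, from -0.41 to 0.071 for Ddx58, from -0.72 to 0.011 for Ifih1, from -0.30 to 0.094 for Eif2ak2 and from -0.64 to 0.11 for Isg20. They ran from -0.22 to 0.20 for Ifi35, from -0.41 to 0.19 for Sp100, from -0.15 to 1.51 for Xaf1, from -0.43 to 0.14 for Irf9, from -0.40 to 0.32 for Ifnar2 and from -0.13 to 0.16 for Ifngr1.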

Other observations

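A second list of 48 interferon-stimulated genes, none of them among the 47, was read from the same fit, and 38 passed the filter. Their median log2 fold change (MI4OE minus MI4KO) was -0.13, and 24 of the 38 were below 0. By edgeR's quasi-likelihood test none passed at an adjusted p of 0.05. At an unadjusted p under 0.05, 4 were lower and 0 higher, against 2.68% and 4.90% of all genes tested.

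Those 4 genes were Tgtp2 and Gm4951, both IRG genes, Cxcl10, a chemokine gene that attracts T cells, and Ifi27l2a. Gm4951 had 0.190, 1.62 and 1.53 CPM in MI4KO replicates 1, 2 and 3 and 0.419, 0.326 and 0.236 CPM in MI4OE. Its log2 fold change was -1.77 ± 0.74 (SE, n = 3 per group) and MI4KO replicate 1 was the lowest library. Cxcl10 had 0.532, 0.515 and 0.940 CPM in MI4KO and 0.0984, 0.315 and 0.221 CPM in MI4OE, with no overlap and with MI4KO replicate 1 not low. Ifi27l2a had 4.63, 6.38 and 48.7 CPM in MI4KO and 3.74, 2.27 and 1.37 CPM in MI4OE. It did not overlap between groups, and its single high value was in MI4KO replicate 3, the library in which the adipocyte markers summed to 966 CPM.

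Within this second list the split between GTPase genes and the rest was also taken, a choice made after the values were seen. The 8 GTPase genes that passed the filter had a median log2 fold change of -0.99 and all 8 were below 0. MI4KO replicate 2 was above replicate 3 for 7 of them, the exception being Gbp10. The other 30 genes had a median of -0.04, with 16 below 0 and 5 higher in MI4KO replicate 2 than in replicate 3. MI4KO replicate 1 was the lowest of the 6 libraries for 4 of the 8 GTPase genes and 14 of the other 30, against 23.0% of all genes tested.

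Irgm2 was one of the GTPase genes, at 9.06, 25.4 and 20.6 CPM in MI4KO and 7.99, 19.5 and 13.4 CPM in MI4OE. Gbp5 had 0.782, 6.19 and 4.49 CPM in MI4KO and 1.40, 2.43 and 2.08 CPM in MI4OE, in the same order within MI4KO as Gbp2, Gbp3, Gbp4 and Gbp7. Gbp10 differed, with 13.0, 3.94 and 4.84 CPM in MI4KO and 2.01, 1.39 and 5.29 CPM in MI4OE, and was highest in MI4KO replicate 1, as were Ifitm1, Ifi204, Ifi205, Mnda and Ifi30. Among the genes outside the GTPase families, the membrane protein genes Ifitm2 and Ifitm3 were highest in MI4OE replicate 1, at 37.6 and 37.3 CPM, and their groups overlapped.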
